A study of Mus musculus with 6 samples.

Results

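Padi1, Inhbb, Ramp3, Dio2 and Fgf1 are 5 genes grouped here as oestrogen-responsive genes of the uterus, and every probe set annotated to one of them was taken, which gave 6 of the 1382 probe sets in the deposited table. Each of Padi1, Inhbb, Ramp3 and Dio2 had 1 probe set, and Fgf1 had 2. The samples were uteri of female mice collected 3.5 days after mating, before implantation: 3 arrays from Stat3 d/d mice, taken here as carrying the deleted form of the floxed Stat3 alleles, and 3 from Stat3 f/f mice, whose floxed alleles are intact. The sources used here do not give strain, age, the Cre driver or the cells in which it acts. Nor do they say whether each array is a separate animal, so the p-values cover the spread among the arrays, which can be technical only. Stat3 encodes a transcription factor downstream of cytokines of the interleukin-6 family.

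Oestradiol acts in the uterus mainly through oestrogen receptor alpha, a nuclear receptor that binds DNA and changes transcription in both epithelium and stroma. In mice, ovarian oestrogen acts shortly before implantation on a uterus already under progesterone, and the balance of both hormones decides whether the tissue becomes receptive. Genes described as oestrogen-responsive serve unlike functions. Padi1 is an enzyme that modifies proteins, Inhbb a secreted signalling subunit, Ramp3 a partner of a peptide receptor, Dio2 an enzyme that activates thyroid hormone, and Fgf1 a growth factor.

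In Stat3 d/d uteri, 4 of the 5 genes were lower than in Stat3 f/f uteri and Fgf1 was higher, on every array. Padi1, Inhbb, Ramp3 and Dio2 were at 29.8% to 39.5% of the Stat3 f/f mean, and both Fgf1 probe sets were over 3 times it (3.47-fold and 3.22-fold). For all 4 lower genes, Stat3 f/f replicate 4 was the highest array. Without it the Stat3 f/f mean dropped by 19.9% for Inhbb, dropped by 20.1% for Padi1, dropped by 26.3% for Dio2 and dropped by 28.9% for Ramp3. The fall of Ramp3 and that of Dio2 leaned on this array most, while Fgf1 did not depend on it.

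The deposited table had been selected on this same comparison: each of its probe sets had a ratio of group means of at least 1.5 and groups of arrays that did not overlap (100% of the table). All 6 probe sets passed limma at an adjusted p of 0.05, as did 100% of the table, so passing says nothing particular about them. By direction, 32.6% of the table was lower past the threshold in Stat3 d/d and 67.4% higher. The targeted gene was lower in Stat3 d/d on both of its probe sets: one read 121, 101 and 131 in Stat3 d/d replicates 1 to 3, against 262, 356 and 243 in Stat3 f/f replicates 1, 2 and 4. Its position relative to the deleted exons was not examined, so it checks the labels only in part. The Stat3 f/f arrays differed pairwise by an SD of 0.39 to 0.48 (log2), and the Stat3 d/d arrays by 0.34 to 0.38. Both Stat3 f/f pairs that hold replicate 4 were wider than the remaining pair, at 0.47 and 0.48. Since the tissue was measured in bulk, fewer cells of a type and less RNA per cell cannot be told apart in any result below.

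Padi1 encodes a peptidylarginine deiminase, an enzyme that converts arginine residues of proteins to citrulline. Its normalized intensity was 18.4, 26.3 and 15.6 in Stat3 d/d replicates 1 to 3, against 48.9, 58.9 and 94.6 in Stat3 f/f replicates 1, 2 and 4. All Stat3 d/d arrays lay below all Stat3 f/f arrays, and the lowest Stat3 f/f array was 1.86 times the highest Stat3 d/d array. The means were 20.1 ± 5.54 in Stat3 d/d and 67.5 ± 24.0 in Stat3 f/f (SD, n = 3 each), a log2 change of -1.67 (SE 0.27; limma, adjusted p = 0.000395). Of the 4 genes that fell, Padi1 had the widest gap between the groups.

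Inhbb encodes the beta B subunit that forms activin B and, with the alpha subunit, inhibin B. It read 89.5, 61.3 and 56.2 in Stat3 d/d replicates 1 to 3, against 207, 128 and 292 in Stat3 f/f replicates 1, 2 and 4. The groups did not overlap, but they came close: Stat3 f/f replicate 2, the lowest of its group, was 1.43 times Stat3 d/d replicate 1. The means were 69.0 ± 17.9 and 209 ± 82.1 in Stat3 d/d and Stat3 f/f (SD, n = 3 each), a log2 change of -1.54 (SE 0.29; limma, adjusted p = 0.000967). Here the Stat3 f/f arrays were spread over the whole range and no single one stood off from a tight pair.

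Ramp3 encodes a receptor activity-modifying protein, which joins the calcitonin receptor-like receptor to make a receptor for adrenomedullin. It read 179, 149 and 128 in Stat3 d/d replicates 1 to 3, against 338, 323 and 734 in Stat3 f/f replicates 1, 2 and 4. Stat3 f/f replicates 1 and 2 were close together and replicate 4 was 2.22 times their mean. The means were 152 ± 26.1 in Stat3 d/d and 465 ± 233 in Stat3 f/f (SD, n = 3 each), a log2 change of -1.51 (SE 0.30; limma, adjusted p = 0.00117). The SD in Stat3 f/f was 50.2% of the mean, the widest relative spread of the 6 probe sets.

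Dio2 encodes the type 2 iodothyronine deiodinase, a selenoenzyme that converts thyroxine to the active hormone triiodothyronine inside cells. It read 403, 344 and 387 in Stat3 d/d replicates 1 to 3, against 806, 605 and 1459 in Stat3 f/f replicates 1, 2 and 4. The Stat3 d/d arrays were nearly level, with an SD of 8.03% of their mean, whereas in Stat3 f/f the SD was 46.7%. The means were 378 ± 30.3 in Stat3 d/d and 957 ± 447 in Stat3 f/f (SD, n = 3 each), a log2 change of -1.24 (SE 0.28; limma, adjusted p = 0.00239). With 45000 tests assumed, about the number of probe sets on such an array, the adjusted p of Dio2 was 0.0779, so its call did not hold, and the other 5 probe sets still passed, with adjusted p from 0.000915 to 0.038. Under that assumption 37.5% of the table passed.

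Fgf1 encodes acidic fibroblast growth factor, a ligand of the FGF receptors that has no classical signal peptide. Its probe set 1423136_at read 70.8, 80.5 and 96.8 in Stat3 d/d replicates 1 to 3, against 27.3, 21.7 and 22.4 in Stat3 f/f replicates 1, 2 and 4. Probe set 1450869_at read 20.8, 23.2 and 37.9 in Stat3 d/d, against 7.83, 8.94 and 8.70 in Stat3 f/f, in the same order of replicates. On both, the 3 Stat3 d/d arrays were above all Stat3 f/f arrays, and replicate 3 was the highest of them. The log2 changes were 1.75 (SE 0.18; limma, adjusted p = 2.81e-05) and 1.53 (SE 0.22; limma, adjusted p = 0.000232). The second probe set is dim, and without the pseudocount its change was 1.64.

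**Figure D1:**
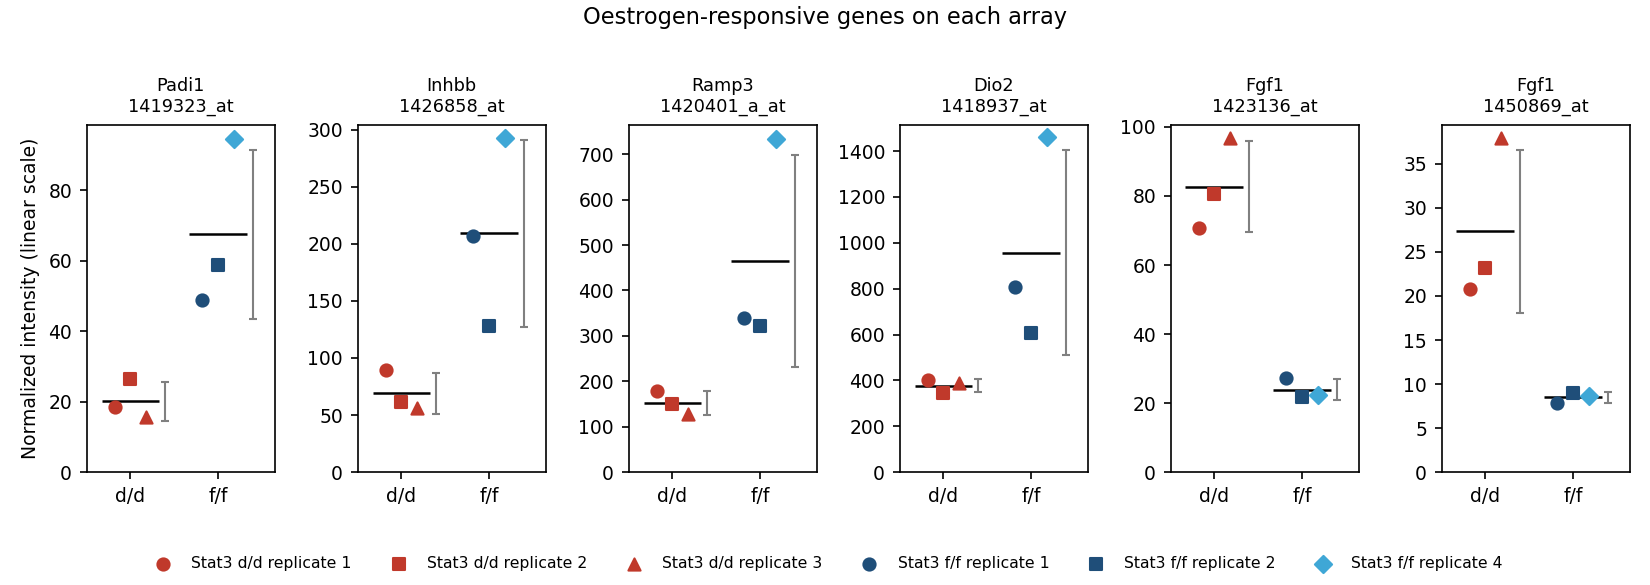
Normalized intensity (linear axis from 0, a separate scale per panel) of the 6 probe sets on each array, Stat3 d/d on the left and Stat3 f/f on the right of each panel; points are arrays, horizontal lines group means, grey bars ± 1 SD (n = 3). Stat3 f/f replicate 4, the light blue diamond, is the highest point for Padi1, Inhbb, Ramp3 and Dio2, and lies among the other Stat3 f/f arrays for Fgf1.

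How far Stat3 f/f replicate 4 carried each group mean differed between the genes. For Dio2 the Stat3 f/f mean was 957 with all 3 arrays and 705 without replicate 4, so 43.4% of the difference in mean intensity between the groups went with that array. For Ramp3 the mean was 465 with it and 331 without it, and 43.0% of the difference was lost. The 2 other Stat3 f/f arrays averaged 1.87 times the Stat3 d/d mean for Dio2 and 2.17 times for Ramp3.

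For Inhbb the Stat3 f/f mean was 209 with all 3 arrays and 167 without replicate 4, a loss of 29.7% of the difference, and for Padi1 it was 67.5 and 53.9, a loss of 28.7%. The 2 other Stat3 f/f arrays averaged 2.43 times the Stat3 d/d mean for Inhbb and 2.68 times for Padi1. Leaving out another Stat3 f/f array raised these means or, for Inhbb without replicate 1, left the mean almost as it was (210). For Fgf1, leaving out replicate 4 cost 1.21% of the difference on 1423136_at and added 0.558% on 1450869_at.

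The step from the other 2 Stat3 f/f arrays up to replicate 4 can be set against the step from Stat3 d/d up to those 2 arrays. On the log2 scale the steps were 1.06 and 0.89 for Dio2 and 1.15 and 1.13 for Ramp3, so for both genes replicate 4 stood off from its own group by more than the rest of that group stood off from Stat3 d/d. For Inhbb they were 0.84 and 1.26, and for Padi1 0.81 and 1.40, so the order was the other way. After centring each array on its median, the step between the groups was the larger one for all 4 genes, with 1.06 and 1.35 for Dio2 and 1.15 and 1.596 for Ramp3. After quantile normalization it was also the larger one for all 4. Most of the selected table (67.4%) was higher in Stat3 d/d, so both scalings lengthen the step between the groups for falling genes. Centring left the step up to replicate 4 almost as it was. The changed order for Dio2 and Ramp3 thus follows from the scaling, and this table cannot show which scaling is right.

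With replicate 4 left out, the log2 change was -0.89 for Dio2 (adjusted p = 0.00228), -1.13 for Ramp3 (adjusted p = 0.000617), -1.26 for Inhbb (adjusted p = 0.00139) and -1.40 for Padi1 (adjusted p = 0.000374), by limma over the whole table in each case, where 98.6% of all probe sets passed. These were the smallest falls among the 6 fits that each leave out 1 array, for all 4 genes. Among the fits that leave out a Stat3 f/f array this was fixed, because replicate 4 was the highest of them. The largest falls were -1.52, -1.72, -1.85 and -1.87 in the same order of genes. For Fgf1 the 6 fits gave 1.63 to 1.85 on 1423136_at and 1.28 to 1.70 on 1450869_at, and its lowest values came without Stat3 d/d replicate 3. The direction could not turn in these fits, because the groups do not overlap, and all 6 probe sets passed in each, as did 1347 to 1377 of the 1382 in the table.

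**Figure D2:**
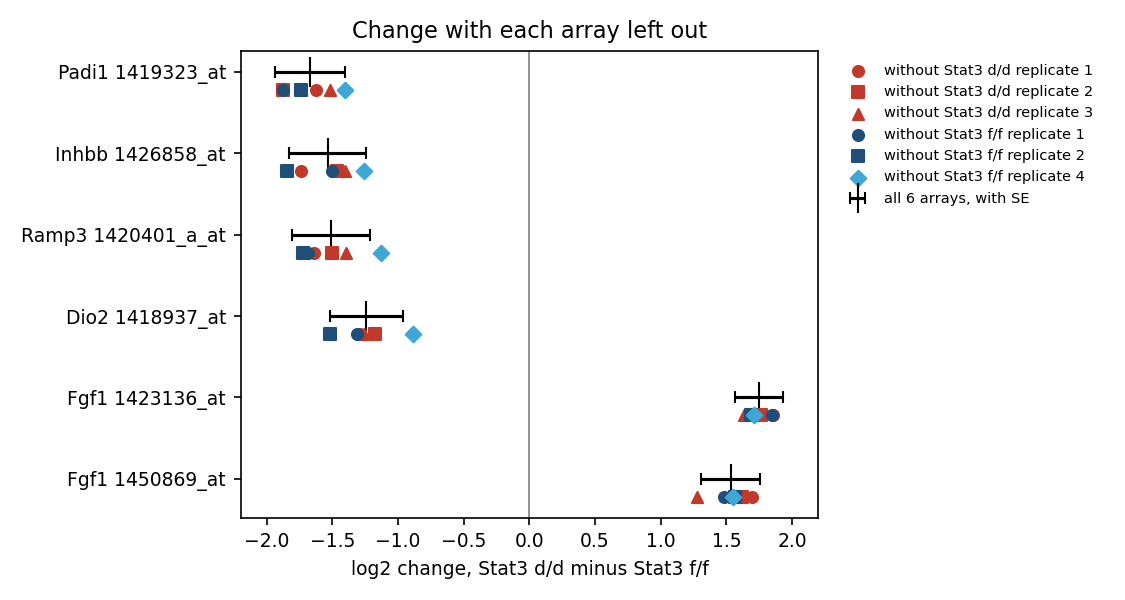
Log2 change, Stat3 d/d minus Stat3 f/f, of the 6 probe sets (rows) with all 6 arrays (black, with SE from limma) and with each array left out in turn (coloured points). The points without Stat3 f/f replicate 4 lie nearest to 0 for Padi1, Inhbb, Ramp3 and Dio2, at -1.40, -1.26, -1.13 and -0.89.

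Stat3 f/f replicate 4 was also the highest Stat3 f/f array for other genes that fell. Among the 451 probe sets that were lower in Stat3 d/d it was the highest in 223 (49.4%), replicate 2 in 127 and replicate 1 in 101. The median excess of replicate 4 over the mean of replicates 1 and 2 was 0.13 (log2) across those 451, and the 4 genes lay near the upper end, with Ramp3 at rank 9, Dio2 at 12, Inhbb at 21 and Padi1 at 25. An excess larger than the remaining difference from Stat3 d/d, as in Ramp3 and Dio2, was present in 49 of the 451 (10.9%). It was present in 2 of the 451 under either median centring or quantile normalization, and neither Ramp3 nor Dio2 was among them. Both scalings lengthen the step between the groups for falling probe sets of this selected table, so a lower count was built in. The Stat3 transcript itself was lowest among the Stat3 f/f arrays on replicate 4, on both probe sets.

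**Figure D3:**
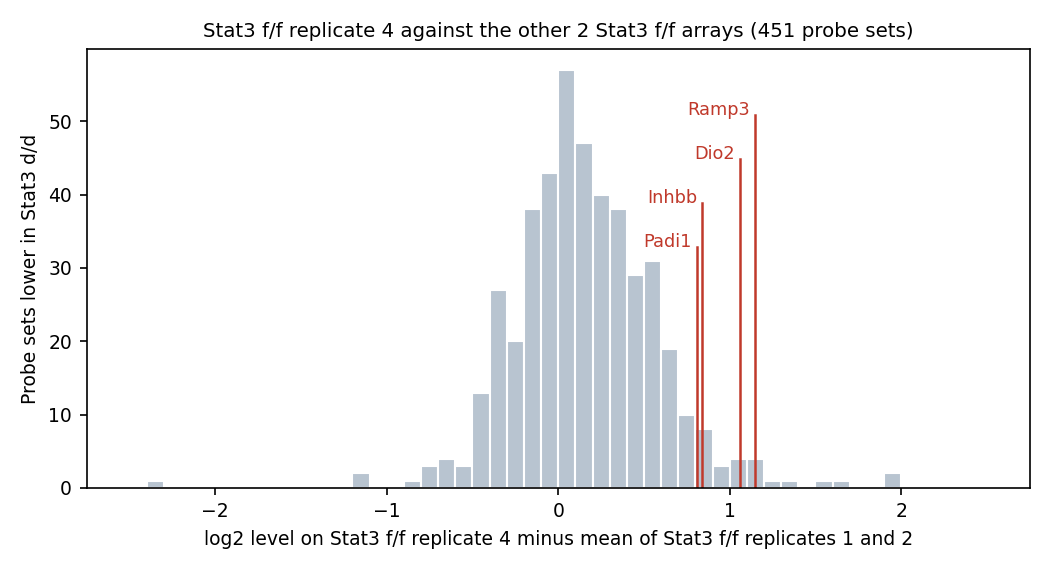
Distribution, over the 451 probe sets lower in Stat3 d/d, of the log2 level on Stat3 f/f replicate 4 minus the mean of Stat3 f/f replicates 1 and 2; bars count probe sets and red lines mark 4 genes. The bulk of the distribution is around its median of 0.13, and Padi1 (0.81), Inhbb (0.84), Dio2 (1.06) and Ramp3 (1.15) lie in its right tail.

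The 4 falling genes were compared with each other across arrays. As a measure of likeness, log2 levels were centred on each gene's mean over the 6 arrays, and the root mean square difference between genes was taken. It was 0.22 between Ramp3 and Dio2 and 0.22 between Ramp3 and Inhbb, and among these 4 genes it was largest, at 0.41, between Padi1 and Inhbb. Against Fgf1, which moved the other way, it was 1.55 to 1.77. The measure includes the step between the groups, on which the table was selected, so this distance follows from the opposite directions. Likeness among the 4 was not set against that between other falling genes, so whether it is particular to them was not tested. In Inhbb, Ramp3 and Dio2 the Stat3 f/f arrays ran in one order, replicate 2 lowest, then 1, then 4, while in Padi1 replicate 1 was the lowest.

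Among 949 other named genes, those nearest to Dio2 were Sox7, a transcription factor (0.11), Aldoc, a glycolytic aldolase (0.12), and Plat, the tissue-type plasminogen activator (0.13). Sox7 read 26.8, 24.1 and 26.0 in Stat3 d/d replicates 1 to 3, against 53.0, 41.6 and 83.4 in Stat3 f/f replicates 1, 2 and 4, which repeats the shape of Dio2. Nearest to Ramp3 were Mfsd2a, a lysophospholipid transporter (0.20), Gkn3, a gastrokine (0.21), and Plat (0.21). Nearest to Inhbb were Mfsd2a, Ramp3 and Aldoc (0.22 to 0.24), and to Padi1 they were Gkn3, the histone gene H2bc18 and Ramp3 (0.19 to 0.28). Gkn3 was read by a probe set whose suffix marks probes shared with other transcripts. In all of these genes Stat3 f/f replicate 4 was the highest array. They were chosen for likeness, over the same 6 arrays, to genes that are highest on it. That shared peak, and the shape of Sox7, therefore follow largely from the choice and are no further support. Nearest to Fgf1 were Gbp7, a guanylate-binding protein, the fucosyltransferase gene Fut10 and the calcium channel subunit gene Cacna2d1 (0.13 to 0.14). These are descriptions over 6 arrays in 2 groups from a table selected on the group difference.

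The promoters of the 4 genes that fell are shown because oestrogen receptor and STAT proteins act through DNA motifs. RefSeq windows of build GRCm38.p6 matched 4 of the 5 genes, all but Fgf1. The 250 bases before each start site are printed in the direction of the gene, with capitals marking 3 motifs searched on both strands after the windows had been seen: the GC box GGGCGG or its complement, the TATA box TATAAA, and the cAMP response element TGACGTCA. No capital motif overlaps another.
Padi1, chr4:140845779-140846028, minus strand: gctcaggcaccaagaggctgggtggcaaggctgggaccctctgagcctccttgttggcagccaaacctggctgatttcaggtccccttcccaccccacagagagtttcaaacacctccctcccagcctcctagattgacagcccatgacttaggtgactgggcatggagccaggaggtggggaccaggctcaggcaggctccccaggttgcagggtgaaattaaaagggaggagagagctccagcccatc
Inhbb, chr1:119422249-119422498, minus strand: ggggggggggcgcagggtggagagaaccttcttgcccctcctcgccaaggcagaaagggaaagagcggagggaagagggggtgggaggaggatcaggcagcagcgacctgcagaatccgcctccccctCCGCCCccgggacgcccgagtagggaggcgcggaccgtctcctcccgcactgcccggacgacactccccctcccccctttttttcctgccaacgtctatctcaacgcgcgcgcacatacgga
Ramp3, chr11:6658283-6658532, plus strand: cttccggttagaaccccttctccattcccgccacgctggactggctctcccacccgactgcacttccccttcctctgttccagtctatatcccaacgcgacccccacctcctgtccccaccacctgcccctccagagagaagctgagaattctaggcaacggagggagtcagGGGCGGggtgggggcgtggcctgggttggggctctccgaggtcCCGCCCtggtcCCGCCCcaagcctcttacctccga
Dio2, chr12:90739039-90739288, minus strand: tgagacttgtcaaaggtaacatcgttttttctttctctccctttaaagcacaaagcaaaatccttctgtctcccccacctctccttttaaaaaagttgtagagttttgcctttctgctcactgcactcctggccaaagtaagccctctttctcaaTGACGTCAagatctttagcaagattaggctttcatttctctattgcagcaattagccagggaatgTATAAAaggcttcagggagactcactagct

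Neither the palindromic consensus of the oestrogen response element nor its single arm AGGTCA nor the STAT motif TTCNNNGAA occurs in these 4 sequences on either strand, which says only that these letters are not in the windows. Of 32851 such windows, 0.0639% hold the palindrome, 14% the single arm and 7.02% the STAT motif. The sequences differ in composition: G and C make up 41.6% of the Dio2 window, against 60% for Padi1, 65.2% for Ramp3 and 68% for Inhbb. Dio2 has the TATA letters 30 to 25 bases before its start, a motif in 12.4% of windows, and the cAMP response element letters 95 to 88 bases before it, in 1.55% of windows. Ramp3 has 3 GC boxes and Inhbb has 1, a motif found in 32.7% of windows, and the Padi1 window holds none of the motifs searched.

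Beyond the 5 genes, a list of 44 other oestrogen-regulated uterine genes was examined, of which 9 were in the table. In Stat3 d/d 7 of the 9 fell and 2 rose, with a median log2 change of -0.84. For all 987 named genes of the table, 327 were lower (33.1%) and 660 higher, with a median of 0.70. Without Stat3 f/f replicate 4 the median of the 9 genes was -0.69. Genes absent from the selected table were not analysed here.

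Several of these genes shared the high value on Stat3 f/f replicate 4. Gjb2, a gap junction protein, read 15.6, 15.0 and 13.1 in Stat3 d/d replicates 1 to 3, against 61.0, 23.9 and 111 in Stat3 f/f replicates 1, 2 and 4. Wnt4, a secreted Wnt ligand needed for decidualisation, read 17.6, 14.5 and 18.03 in Stat3 d/d, against 29.5, 36.7 and 86.9 in Stat3 f/f, in the same order, on its brighter probe set. Pgr, the progesterone receptor, which oestrogen induces in uterine stroma, read 730, 645 and 706 in Stat3 d/d, against 1065, 1107 and 1613 in Stat3 f/f. For these 3 genes the highest Stat3 f/f array was again replicate 4, as it was in 5 of the 7 falling genes of this list. Over all 451 falling probe sets of the table that share was 49.4%. Adding the 4 falling members, already described as highest on replicate 4, makes it 9 of 11 and is no further support. The counts are small and were not tested against that share. Leaving it out took 45.0% of the group difference in mean intensity from Gjb2, 52.3% from Wnt4 and 30.9% from Pgr. The values for Wnt4 and Pgr are those of their brightest probe sets. Dimmer ones lost 34.5% for Wnt4, and 32.6% and 24.4% for Pgr.

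The other falling genes varied in this respect. Lcn2, an iron-scavenging lipocalin, read 21.1, 12.2 and 12.1 in Stat3 d/d replicates 1 to 3, against 181, 98.8 and 212 in Stat3 f/f replicates 1, 2 and 4, and lost 16.1% of its difference without replicate 4. Gadd45g, a stress-inducible growth regulator, lost 13.3% and Cebpb, a transcription factor of decidualisation, 5.97%. Ccnd1, the cyclin of entry into the cell cycle, was even across Stat3 f/f and lost 1.85% on its brighter probe set. Its log2 change there was -0.59 (SE 0.16; limma, adjusted p = 0.005), and its other probe set changed by -2.04.

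Of the 2 genes that rose, the water channel gene Aqp8 read 88.7, 160 and 78.2 in Stat3 d/d replicates 1 to 3, against 34.8, 41.2 and 24.6 in Stat3 f/f replicates 1, 2 and 4, and replicate 4 was the lowest of its group. Rasd1, a small GTPase of the Ras family, read 102, 107 and 90.2 in Stat3 d/d, against 64.3, 58.1 and 68.9 in Stat3 f/f. With the 5 members included, 11 of 14 genes of the list were lower and 3 higher, with a median of -1.16. Members and list were chosen with earlier results of these data known, so the counts are description only. The direction in which oestrogen moves each listed gene was not used.

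**Figure D4:**
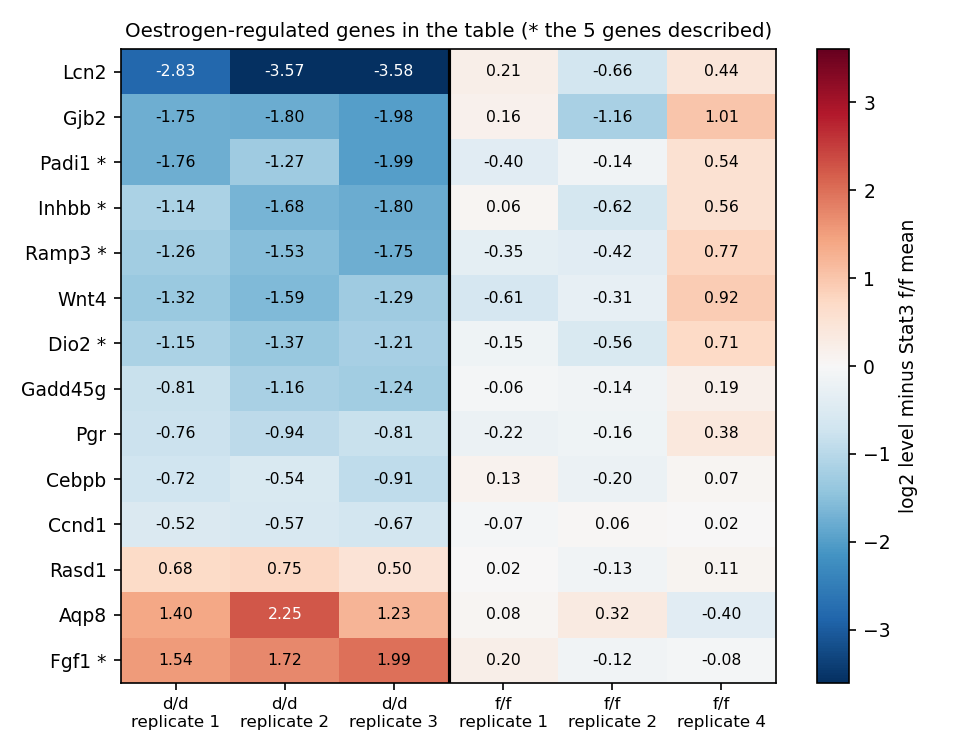
Log2 level minus the gene's Stat3 f/f mean for the 14 oestrogen-regulated genes in the table (rows, ordered by change) on the 6 arrays (columns, Stat3 d/d left, Stat3 f/f right); asterisks mark the 5 genes described in full. The right column, Stat3 f/f replicate 4, is above the Stat3 f/f mean for all 11 genes that fell, with 1.01 for Gjb2, 0.92 for Wnt4, 0.77 for Ramp3 and 0.71 for Dio2, and near 0 for Fgf1 (-0.08).

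The direct partners of the 5 genes were mostly outside the table. Of 5 peptidylarginine deiminase genes, Padi1 and Padi2 were in it, and Padi2 also fell, with 33.4, 24.2 and 23.1 in Stat3 d/d replicates 1 to 3, against 49.7, 50.8 and 36.1 in Stat3 f/f replicates 1, 2 and 4. In Padi2, unlike Padi1, replicate 4 was the lowest Stat3 f/f array. Inhbb was the only one of 20 activin and inhibin pathway genes in the table, Ramp3 the only one of 12 genes of the adrenomedullin and calcitonin gene-related peptide system, and Dio2 the only one of 10 genes of thyroid hormone handling.

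Of 24 genes of the fibroblast growth factor pathway, 3 were in the table. Besides Fgf1, the carrier gene Fgfbp3 rose by 0.59 (SE 0.20; limma, adjusted p = 0.0134) at intensities of 13.1 or less, while Etv5, a transcription factor downstream of FGF receptors, fell to 64.4, 54.2 and 54.2 in Stat3 d/d replicates 1 to 3, against 82.5, 80.2 and 97.4 in Stat3 f/f replicates 1, 2 and 4. Of 18 genes of oestrogen receptors and oestrogen metabolism, Nrip1 and Hsd17b7 were in the table. Nrip1, a corepressor that binds the oestrogen receptor, rose by 0.96. Hsd17b7, a dehydrogenase of sterol and oestrogen synthesis, fell by 0.91 on a probe set whose suffix marks probes shared with other transcripts. Both were dim, with means of 19.1 in Stat3 d/d and 9.14 in Stat3 f/f for Nrip1, and 15.0 and 29.3 for Hsd17b7. The genes of both oestrogen receptors were not in the table and were not analysed here.

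Some markers of other cell types differed between the groups and, within Stat3 f/f, on replicate 4, though not all in 1 direction. All 8 of 19 leukocyte markers in the table were higher in Stat3 d/d, with a summed intensity of 698.5 to 1216 in Stat3 d/d and 261 to 375 in Stat3 f/f, where replicate 4 had the lowest sum. Over all 931 probe sets higher in Stat3 d/d, the lowest Stat3 f/f array was replicate 4 in 41.1% and replicate 2 in 41.2%. Replicate 4 was the lowest Stat3 f/f array for 6 of the 8 leukocyte markers. It lay between the others for Mpeg1, and for the dim Itgax it was level with replicate 2 (6.43 against 6.42). The 2 of 14 epithelial markers in the table, Cldn3 and Cldn4, were higher in Stat3 d/d and summed to 1028 to 1209 there and to 516 to 815 in Stat3 f/f. Cldn3 makes up most of that sum and was lowest on replicate 4 of Stat3 f/f, whereas Cldn4 was highest on it. Of 9 ovary and oviduct markers the table held Ovgp1 alone, which encodes the oviductal glycoprotein and read 240 to 494 in Stat3 d/d and 7.42 to 31.3 in Stat3 f/f, with the lowest value on replicate 4. The 3 of 10 stromal markers in the table went opposite ways, and their sums overlapped, at 584 to 614 in Stat3 d/d and 594 to 769 in Stat3 f/f. Thy1 and Dcn were lower in Stat3 d/d and highest on replicate 4 of Stat3 f/f. Dcn was dim, at 9.59, 14.2 and 14.4 in Stat3 d/d replicates 1 to 3, against 22.2, 25.7 and 34.9 in Stat3 f/f replicates 1, 2 and 4. Tcf21 was higher in Stat3 d/d, at 336, 334 and 294, against 223, 171 and 184 in Stat3 f/f, in the same order of replicates. None of 7 smooth muscle or 9 endothelial markers was in the table, Pgr was the only one of 10 uterine markers, and no marker in it was at 0. The part of these cell types in the results above was not tested.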

How the data were processed

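Biotin-labelled cRNA from 6 uterine samples was measured on Affymetrix arrays, per the labels' protocols. The authors deposited a linear intensity for each probe set, from 2.47 to 4352. RMA is named in the submitters' processing notes, without a version. No source used here states how values were returned from log2 to a linear scale, or by which rule probe sets were selected. Groups came from the source names and replicate numbers from the titles. Genes were named through the platform annotation: 1191 probe sets had 1 symbol, 57 several and 134 were unnamed here.

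Levels were taken as log2(intensity + 1), which understates changes of dim genes, and the groups were compared in limma 3.58.1 (R 4.3.3) with lmFit and eBayes and no covariate. P-values were adjusted by Benjamini-Hochberg over all 1382 probe sets, with 0.05 as threshold. A positive change means higher in Stat3 d/d. A gene was represented by its probe set with the highest mean over the 6 arrays. The fit was tested on simulated data with the levels and spread of this selected table, which cannot check the effect of the selection. The number of arrays limits the precision.

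The members and gene lists were chosen with earlier results of these data known. Named were all member probe sets, Stat3, genes of the oestrogen list and of the members' own pathways that are in the table, and the 3 genes nearest to each member in pattern, predicted genes left out. Replicate numbers 1 and 2 occur in both groups. Deviations of same-numbered arrays correlated at 0.09 and 0.03, so the numbers were not taken as pairs. The highest correlation across the groups was 0.16, between Stat3 d/d replicate 3 and Stat3 f/f replicate 4, whose numbers differ. A pairing by order of the arrays was not fitted. Alternatives were no pseudocount, median centring, quantile normalization, a variance trend, the replicate number as a block, 45000 assumed tests, a mean intensity of at least 32, and each array left out. The motifs marked in the promoters were chosen after the windows had been seen.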

Additional observations from a re-analysis of the deposited data

How the results depend on the processing

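Over the 77 alternative fits of the 6 probe sets, 76 kept their direction and their side of the threshold, and 1 did not: with 45000 tests assumed, Dio2 at -1.24 had an adjusted p of 0.0779, because more tests were counted. In a table selected for groups that do not overlap this is no sign of stability: 1382 probe sets passed without the pseudocount and with a variance trend, and 1347 to 1377 with 1 array left out. The second Fgf1 probe set is dimmer than an intensity of 32 and has no value under that filter. Median centring and quantile normalization lower all changes together, and the falls were then -2.14 and -2.10 for Padi1, -2.004 and -2.02 for Inhbb, -1.98 and -1.94 for Ramp3 and -1.71 and -1.75 for Dio2, while Fgf1 rose by 1.28 and 1.31 on 1423136_at and by 1.06 on 1450869_at under both. A table selected on the group difference cannot show which scaling is right. With the replicate number as a block, which the pairing check did not bear out, the changes were -1.25 for Padi1, -1.13 for Inhbb, -1.01 for Ramp3, -0.91 for Dio2 and 1.59 and 1.29 for Fgf1, and all 6 passed, as did 1284 of the 1382 in the table. That fit takes the group difference from replicates 1 and 2 only, so it leaves out Stat3 f/f replicate 4 and Stat3 d/d replicate 3. Few residual degrees of freedom remain in it, so its p-values rest mostly on the variance shared over the selected table.

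All 1382 probe sets passed in the main analysis (451 lower, 931 higher). This count was 873 after median centring (451 lower, 422 higher), 887 after quantile normalization (451 lower, 436 higher), 518 with 45000 assumed tests (131 lower, 387 higher), and 705 among brighter probe sets (239 lower, 466 higher). The median change of the 14 oestrogen-regulated genes, -1.16, was -1.62 after median centring and -1.64 after quantile normalization. For the 9 genes other than the members, -0.84 became -1.30 and -1.34. With 1 array left out, the first median ranged from -1.33 to -0.92 and the second from -0.95 to -0.69. These settings for the medians were chosen after the data were seen.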

Other observations

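Among the 931 probe sets that were higher in Stat3 d/d, the highest Stat3 f/f array was replicate 1 in 448 (48.1%), replicate 4 in 253 and replicate 2 in 230, so the array that was most often highest among falling probe sets was not so among rising ones. After median centring, replicates 1 and 2 were each the highest in 346 of the 931. Of the 451 falling probe sets, 386 (85.6%) would still have a ratio of group means of at least 1.5 without Stat3 f/f replicate 4, including those of Padi1, Inhbb, Ramp3 and Dio2.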
